A study of Mus musculus with 8 samples.

Results

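Serine is made from the glycolytic intermediate 3-phosphoglycerate by Phgdh, Psat1 and Psph, which act one after the other in the cytosol. Serine then hands a carbon unit to tetrahydrofolate and becomes glycine, a step run by Shmt1 in the cytosol and Shmt2 in mitochondria. The folate-bound unit is passed along by Mthfd1 in the cytosol and by Mthfd2 and Mthfd1l in mitochondria, which release it as formate, while Aldh1l2 oxidises it to carbon dioxide. The units feed purine, thymidylate and methionine synthesis, and several of the genes, among them Phgdh, Psat1, Shmt2 and Mthfd2, are known targets of ATF4, the transcription factor of amino acid shortage. These 9 enzymes were read as the probe sets to which the platform annotation gives exactly 1 gene symbol, that symbol being one of the 9. They had 20 of the 22626 probe sets that are not array controls: 4 for Phgdh, 2 for Psat1, 1 for Psph, 4 for Shmt1, 4 for Shmt2, 3 for Mthfd1 and 2 for Mthfd2. The annotation used here gave none to Mthfd1l or Aldh1l2, so 7 of the 9 enzymes have values and the mitochondrial side is represented by Shmt2 and Mthfd2.

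All RNA came from C2C12, a line of mouse myoblasts whose cells fuse to form myotubes once serum is lowered. All cultures were grown in 10% fetal bovine serum, switched to differentiation medium with 2% horse serum, and fed alike until day 4. Control cultures (4 arrays, A to D) then went on being re-fed every 48 h, starved cultures (4 arrays, E to H) were left in the same medium for 4 days, and RNA of both was taken on day 8. Starved cells thus differ from controls in all that fresh medium brings, serum included, and no single nutrient was varied.

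Of the 12 myotube markers looked up (such as Myog, Ckm, Acta1 and Myh3) 12 were bright enough to be tested, and their mean log2 signal lay between 12.49 and 12.59 on the control arrays and between 12.55 and 12.60 on the starved arrays. Of these 12 Myh8, the perinatal myosin heavy chain, was called higher (1.16 ± 0.08, limma, adjusted p = 3.38e-06). Mef2c, a transcription factor of muscle differentiation, was called lower (-0.33 ± 0.05, limma, adjusted p = 0.00182), and 10 were not called. The value of Mef2c is that of its brightest probe set, and its 4 other tested probe sets are not given here. Of all 8352 genes tested 4.25% were called higher and 6.93% lower. Among markers of cycling myoblasts 2 of 9 tested genes were called lower in starved cells, Cdk1 by a log2 fold change of -0.82 and Rrm2 by -0.83, and 0 were called higher. The mean log2 signal of those 9 was 7.89 to 8.09 on control arrays and 7.32 to 7.70 on starved arrays, and its part in the results below was not tested. In RNA from a whole culture, fewer cells of a type and less RNA per cell cannot be told apart. Of 6 adipocyte markers on the array Lpl was called higher, Fabp4 was not called and Adipoq, Pparg, Lep and Cidec were too dim to be tested, and 0 of the 2 tested osteoblast markers were called. The deposited signals differ in overall brightness. Trimmed means were 455, 317, 342 and 423 intensity units on control arrays A to D, and 243, 277, 296 and 366 on starved arrays E to H. The starved arrays thus tended to be dimmer, a difference between groups that normalization between arrays takes out. Control B stood apart by its Gapdh control probe sets, with a 3' to 5' log2 ratio of 1.399 against -0.23 to -0.04 on the other 7 arrays.

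The stretches just before the transcription starts are shown because 5 of the 6 enzymes that could be tested were called higher together. Beside these 5, the stretches of Mthfd1, which was not called, and Shmt1, which was too dim to be tested, are shown too. They are from the RefSeq promoter table (GRCm38.p6), which held 8 of the 9 enzymes, and each is the 120 bases that end at the base before the listed start, 5′ to 3′ on the gene's own strand. Capitals mark CCAAT or its reverse complement ATTGG, the box that the factor NF-Y binds.
Phgdh: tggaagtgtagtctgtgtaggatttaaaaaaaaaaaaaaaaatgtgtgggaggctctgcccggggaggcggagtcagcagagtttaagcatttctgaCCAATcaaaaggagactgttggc
Psat1: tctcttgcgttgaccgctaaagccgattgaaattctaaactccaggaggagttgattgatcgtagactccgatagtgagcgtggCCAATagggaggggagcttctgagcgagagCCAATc
Psph: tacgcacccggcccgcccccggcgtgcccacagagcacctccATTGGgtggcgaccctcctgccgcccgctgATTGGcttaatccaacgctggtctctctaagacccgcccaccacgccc
Shmt2: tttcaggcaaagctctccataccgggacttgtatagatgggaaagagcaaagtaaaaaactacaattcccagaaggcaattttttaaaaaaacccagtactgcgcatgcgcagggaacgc
Mthfd2: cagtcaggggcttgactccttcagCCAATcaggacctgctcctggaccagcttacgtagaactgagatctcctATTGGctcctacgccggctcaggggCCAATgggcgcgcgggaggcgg
Mthfd1: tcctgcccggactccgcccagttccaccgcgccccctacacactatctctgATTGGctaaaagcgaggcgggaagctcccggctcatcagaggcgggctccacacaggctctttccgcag
Shmt1: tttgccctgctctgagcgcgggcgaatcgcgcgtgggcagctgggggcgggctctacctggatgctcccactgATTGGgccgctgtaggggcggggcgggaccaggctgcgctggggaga

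The stretches lie at chr3:98339970-98340089 (minus strand) for Phgdh, chr19:15925060-15925179 (minus) for Psat1, chr5:129787254-129787373 (minus) for Psph and chr10:127522445-127522564 (minus) for Shmt2. Those of the other enzymes lie at chr6:83317605-83317724 (minus) for Mthfd2, chr12:76255112-76255231 (plus) for Mthfd1 and chr11:60811266-60811385 (minus) for Shmt1. For Mthfd2 the listed transcript start, 83317604, is far from the start of the gene in the annotation, 83326011. The 2 positions also differ for Psph (129787253 and 129787443) and for Mthfd1 (76255232 and 76254406). CCAAT on either strand stood in this stretch of 6 of the 9 windows of these enzymes, against 21.3% of 32851 windows in the table. Psat1 has 2 listed starts, and the stretch before the other one (chr19:15924623-15924742, minus strand, not shown) had no match. It occurred 3 times before Mthfd2, 2 times before the Psat1 start shown and before Psph, and once before Phgdh. It also occurred once before Mthfd1, which was not called, and before Shmt1, which was too dim to be tested, whereas Shmt2 and Mthfd1l had no match. The core of the composite element through which ATF4 and C/EBP factors act, TGATGNAA or TTNCATCA, was searched over the whole 300-base windows of the table. It was in 3.97% of all 32851 windows and in 0 of these 9. The E-box CACGTG, which Myc binds, was in 7.15% of all windows and in 0 of these 9. None of the 3 motifs contains another, and a window without a match shows only that these letters are not in it.

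Serine synthesis enzymes, mitochondrial Shmt2 and mitochondrial Mthfd2 were all higher in starved myotubes, by about 2- to 5-fold, while cytosolic Mthfd1 did not pass. Values are log2 signals after quantile normalization between arrays, fold changes are starved over control with the standard error of limma's linear model, and p-values were adjusted by Benjamini-Hochberg across the 13575 probe sets tested (n = 4 arrays per group). Each gene is described by its brightest tested probe set unless another is named. Of the 6 enzymes bright enough to be tested 5 were called higher and 0 lower, where 4.25% of the 8352 genes tested were called higher and 6.93% lower. Their median log2 fold change was 1.52, and that of all genes tested was 0.01. The groups did not overlap for any of the 6, as for 18.5% of all genes tested.

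**Figure D1:**
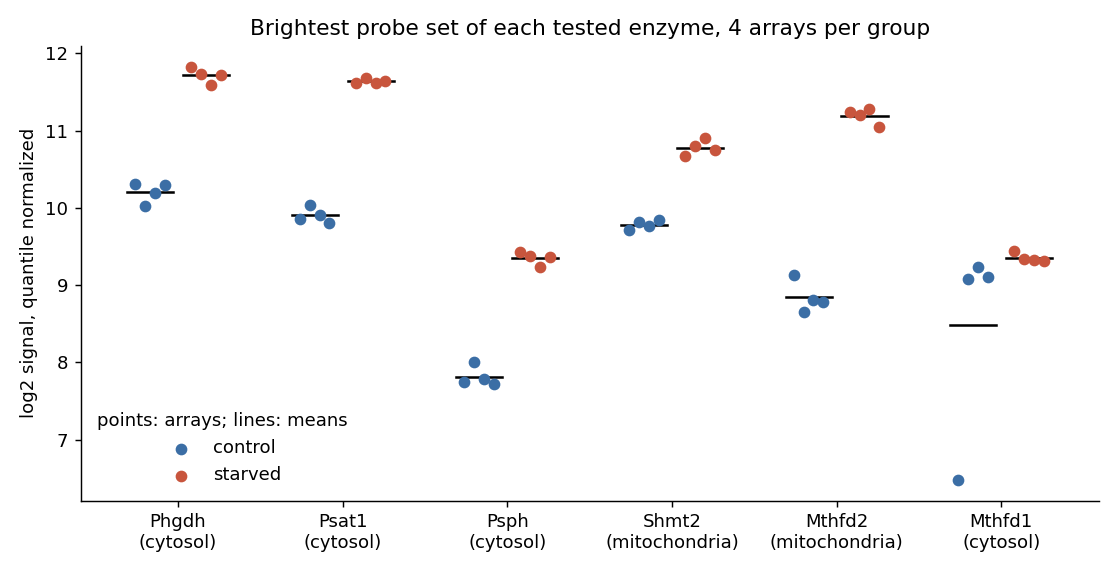
Log2 signal (quantile normalized) of the brightest probe set of each tested enzyme, with one point per array (blue, control A to D; red, starved E to H, left to right) and a line at each group's mean. The starved points lie above the control points for each enzyme, and control A lies far below the other arrays for Mthfd1; heights of different genes are not comparable, because each probe set has its own brightness.

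Phgdh (1426658_x_at), the dehydrogenase that takes 3-phosphoglycerate out of glycolysis, read 10.31, 10.03, 10.19 and 10.30 on control arrays A to D, and the starved arrays E to H gave 11.83, 11.73, 11.59 and 11.72. Each starved array was above each control, and both groups were narrow. The log2 signal rose by 1.51 ± 0.09, which is 2.85-fold (limma, adjusted p = 1.15e-06). Its other 3 probe sets rose by 1.78 ± 0.17, 2.01 ± 0.10 and 2.07 ± 0.10, so the brightest one gave the smallest value of the 4. All 4 carry the suffix x_at, which Affymetrix gives to probe sets of which some probes can bind other transcripts. Outside the member rule lie 2 further probe sets, which the annotation assigns to Phgdh together with a transcribed pseudogene. They had log2 fold changes of 2.39 ± 0.15 (shared with Gm8096) and 0.91 ± 0.13 (shared with Gm6756), and signals of Phgdh and of these copies cannot be told apart there.

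Psat1 (1451064_a_at), the aminotransferase of the second step, read 9.86, 10.04, 9.90 and 9.81 on control arrays A to D, and the starved arrays E to H gave 11.61, 11.68, 11.62 and 11.65. The starved arrays lay close together (SD 0.03), and each was above each control. Psat1 rose by 1.73 ± 0.07, or 3.33-fold (limma, adjusted p = 2.86e-07). Its other probe set rose by 1.91 ± 0.10.

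Psph (1415673_at), the phosphatase that releases serine, read 7.75, 8.01, 7.79 and 7.72 on control arrays A to D, and the starved arrays E to H gave 9.43, 9.38, 9.24 and 9.36. Every starved array was above every control, of which control B was the highest. Psph rose by 1.54 ± 0.11, or 2.90-fold (limma, adjusted p = 4.78e-06), through its only probe set. All 3 steps of serine synthesis were thus called higher. Their log2 fold changes differ by less than the 0.56 between the lowest and highest of the probe sets of Phgdh alone, so no order among the 3 is given.

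Shmt2 (1455084_x_at), which turns serine into glycine in mitochondria, read 9.72, 9.81, 9.77 and 9.84 on control arrays A to D, and the starved arrays E to H gave 10.67, 10.80, 10.90 and 10.75. The groups did not overlap, and Shmt2 rose by 0.997 ± 0.079, or 2.00-fold (limma, adjusted p = 1.40e-05). It had the smallest fold change of the 5 enzymes called. Of its other 3 probe sets 2 rose, by 1.42 ± 0.11 and 1.17 ± 0.18. The remaining one, 1455985_x_at, was dim (mean log2 signal 6.90 in controls and 6.79 in starved cells) and did not pass (-0.11 ± 0.25, adjusted p = 0.841).

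Mthfd2 (1419254_at), the dehydrogenase and cyclohydrolase of mitochondrial folate, had the largest change of the enzymes by brightest probe sets. It read 9.13, 8.66, 8.80 and 8.78 on control arrays A to D, and the starved arrays E to H gave 11.24, 11.20, 11.27 and 11.05. The gap between the groups was several times the spread within either. Mthfd2 rose by 2.35 ± 0.11, or 5.09-fold (limma, adjusted p = 4.51e-07), and its other probe set rose by 1.94 ± 0.15. The latter is below the 2.01 and 2.07 of 1437621_x_at and 1454714_x_at of Phgdh, so the order depends on the probe set. Among all 8352 genes tested the fold change of Mthfd2 ranked 4 from the top, against 14 for Psat1, 21 for Psph, 22 for Phgdh and 58 for Shmt2. These ranks rest on brightest probe sets, which for Phgdh is the lowest of its 4, and set no order among the serine synthesis enzymes.

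**Figure D2:**
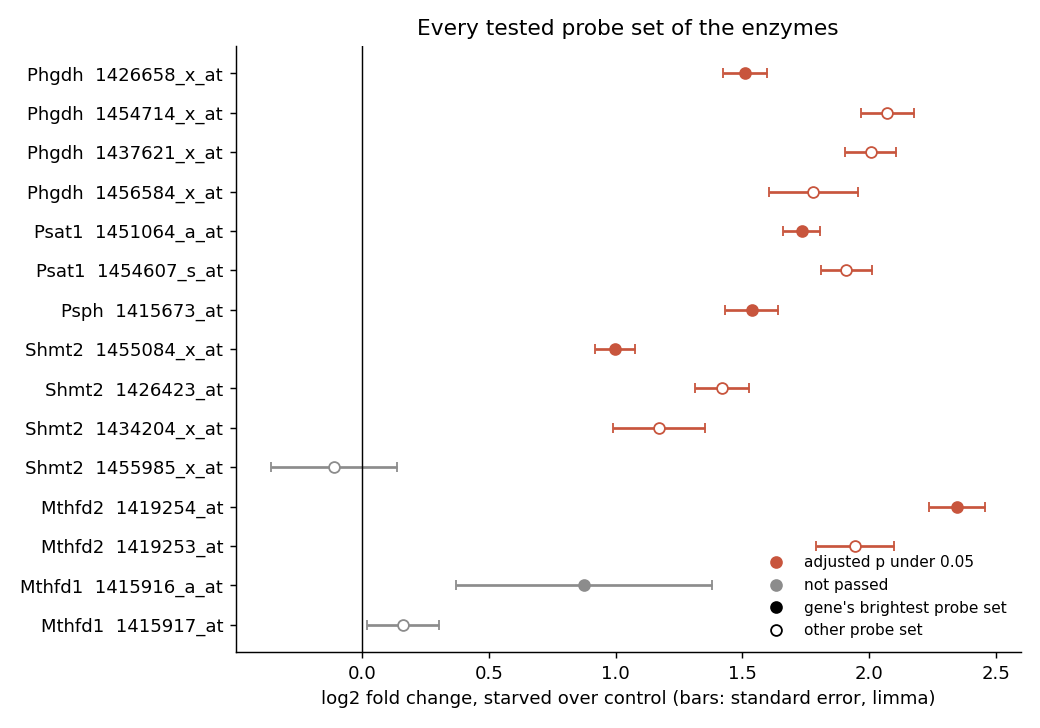
Log2 fold change, starved over control, of the 15 tested probe sets of the 6 enzymes (points; bars, standard error from limma). Red marks an adjusted p under 0.05, grey the rest, and filled points the brightest probe set of a gene; the 12 red points lie between 0.997 and 2.35, and the 3 grey ones belong to Mthfd1 and to the dimmest tested probe set of Shmt2.

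Over probe sets, 12 of the 15 tested were called higher and 0 lower, against 4.35% higher, 6.23% lower and 10.6% in either direction among all probe sets tested. Probe sets of 1 gene measure the same RNA and are no replicates of each other. Only 1 of the 15 had a control mean below the brightness limit of 6.61 and so entered the test through its starved arrays, a probe set of Shmt2 (6.49 in controls, 7.66 in starved cells). The 5 enzymes were called with each scaling. In unscaled values, where the median of all probe sets was -0.33, the change of Shmt2 came to 0.62 (adjusted p = 0.0403), which is 0.95 above that median. Without control B the same 5 were called, with log2 fold changes of 1.45 for Phgdh, 1.78 for Psat1, 1.59 for Psph, 1.004 for Shmt2 and 2.28 for Mthfd2.

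No cytosolic folate enzyme passed the test, but the data on them are weaker and do not show that they were unchanged. Mthfd1 (1415916_a_at), which carries the cytosolic folate steps on a single protein, read 6.48, 9.09, 9.24 and 9.11 on control arrays A to D, and the starved arrays E to H gave 9.44, 9.34, 9.33 and 9.31. Control A was far below all other arrays, and the other 3 controls lay just below the starved arrays. The deposited intensity of this probe set was 116 on control A and 499.7, 607.8 and 700.2 on controls B to D, so the low value is in the deposited table. The log2 fold change was 0.88 ± 0.50 (limma, adjusted p = 0.327), and without control A it was 0.21 ± 0.10 (adjusted p = 0.269).

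The other tested probe set of Mthfd1, 1415917_at, gave no low value for control A. It read 8.74, 8.62, 8.44 and 8.18 on control arrays A to D, and the starved arrays E to H gave 8.72, 8.83, 8.64 and 8.45. The groups overlapped, and the log2 fold change was 0.16 ± 0.14 (limma, adjusted p = 0.540). The remaining probe set of Mthfd1 was too dim to be tested, with a mean of 6.19 in controls and 6.07 in starved cells.

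Shmt1, the cytosolic partner of Shmt2, had 4 probe sets, none of them bright enough to be tested. The brightest, 1425177_at, read 5.43, 5.71, 7.87 and 5.58 on control arrays A to D, and the starved arrays E to H gave 7.79, 6.69, 6.14 and 5.87. The arrays of each group were scattered and the groups overlapped, as they did for the other 3 probe sets. When no limit on brightness was set, the 4 probe sets had log2 fold changes from -0.14 to 0.47, with standard errors from 0.17 to 0.58 (limma, adjusted p from 0.528 to 0.888). Whether Shmt1 changed is not resolved by these signals.

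Cytosolic against mitochondrial enzymes were compared within arrays, as the log2 signal of the mitochondrial enzyme minus that of its cytosolic counterpart. A change in this difference shows unequal change of both genes, and its size on 1 array has no meaning by itself. Of 4 pairs considered only Mthfd2 with Mthfd1 could be computed from tested probe sets. With the brightest probe sets the difference was 2.65, -0.43, -0.44 and -0.33 on control arrays A to D, while the starved ones (E to H) gave 1.80, 1.85, 1.94 and 1.74. Control A lay above the starved arrays and the other 3 controls below them. The mean difference was higher in starved cells by 1.47 ± 0.76, and the exact permutation test over the arrays, two-sided, gave p = 0.143 (n = 4 arrays in each group). With the other probe set of Mthfd1, a choice made after the values were seen, it was 0.39, 0.04, 0.36 and 0.60 in controls and 2.52, 2.37, 2.64 and 2.61 in starved cells. All 4 starved arrays were then above all controls, by 2.18 ± 0.13 on average (exact permutation p = 0.0286, the smallest that 70 labellings can give, and 0.0858 when adjusted over 3 comparisons). Leaving out control A gave 2.245 ± 0.055 with the brightest probe sets (exact p = 0.0286, unadjusted). Leaving out control B, C or D instead gave exact p = 0.314, unadjusted. The difference of Shmt2 to the brightest, untested probe set of Shmt1 was higher by 0.52 ± 0.74 in starved cells (exact p = 0.514, 0.514 adjusted).

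**Figure D3:**
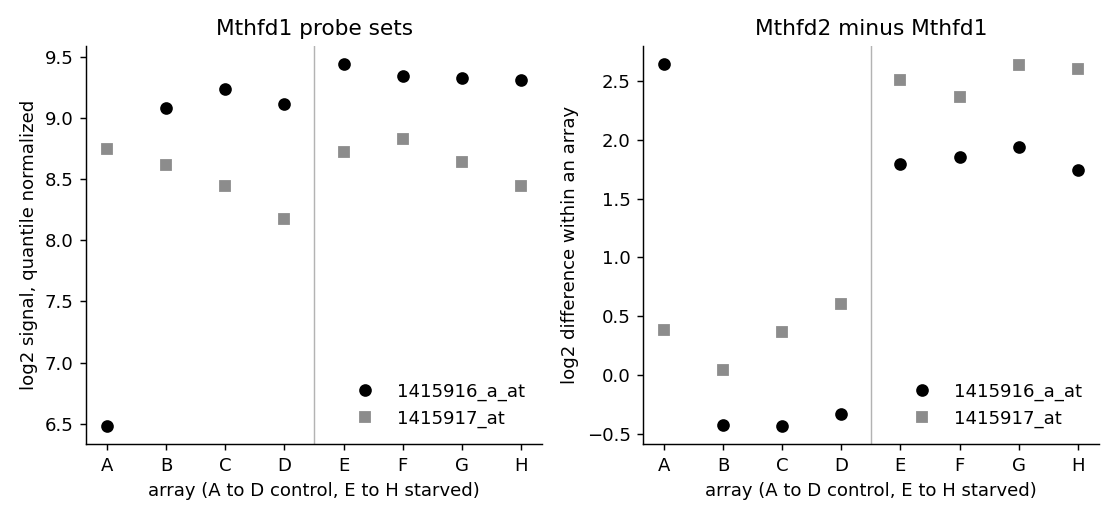
Left, log2 signal (quantile normalized) of the 2 tested probe sets of Mthfd1 on each array; right, the log2 difference Mthfd2 minus Mthfd1 within each array for each of these probe sets (black circles, the brightest; grey squares, the other). Control A departs from the other controls with the brightest probe set alone, at 6.48 on the left and 2.65 on the right.

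Genes around the pathway were looked up in 6 lists. Of these 58 genes 36 were tested, 4 were called higher, 2 lower and 30 were not called, with a median log2 fold change of 0.02. Of all genes tested 11.2% were called in either direction. In the glycine cleavage system, which breaks glycine down in mitochondria, 0 of 2 tested genes were called (Gcsh -0.09 ± 0.12, Dld 0.13 ± 0.13), and Gldc was too dim to be tested. Among other folate enzymes 0 of 6 tested genes were called. Gart, which uses formyl-folate in purine synthesis, had the lowest adjusted p of the 6 (0.29 ± 0.09, adjusted p = 0.0756). Its groups did not overlap, as for 18.5% of all genes tested, and its 2 other tested probe sets are not given here. Aldh1l1, the cytosolic counterpart of Aldh1l2, was at -0.23 ± 0.19, and Tyms, the thymidylate synthase, was too dim to be tested. Mthfd2l, the relative of Mthfd2, had no probe set in the annotation used here. Of the folate carriers and receptors 0 of 4 were called (log2 fold changes from -0.02 to 0.25).

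In the methionine cycle and transsulfuration list 1 of 5 tested genes was called, Cth, which makes cysteine at the end of a route that draws its carbon skeleton from serine. It read 4.55, 6.36, 5.54 and 5.03 on control arrays A to D, and the starved arrays E to H gave 8.25, 8.47, 8.28 and 8.05, a rise of 2.89 ± 0.33 (limma, adjusted p = 2.14e-04). Its control mean of 5.37 lay below the brightness limit, so it entered the test through its starved arrays, as no other called gene of these lists did. The size moved with the offset added before the logarithm, being 3.37 with no offset and 2.23 with a larger one, the 25th percentile. Cbs, which makes the cystathionine that Cth splits, was at 0.10 ± 0.20, and Ahcy and Mat2b of the methionine cycle were at -0.06 ± 0.09 and 0.07 ± 0.13.

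Among genes of serine and glycine transport and use 3 of 13 tested genes were called higher and 0 lower. Slc6a9, a glycine transporter of the plasma membrane, read 9.71, 9.24, 9.44 and 9.81 on control arrays A to D, and the starved arrays E to H gave 10.42, 10.67, 10.56 and 10.67. The groups were separate, and it rose by 1.03 ± 0.13 (limma, adjusted p = 3.60e-04). This call was lost in unscaled values (0.64, adjusted p = 0.0655), and its other probe set did not pass (0.79 ± 0.24, adjusted p = 0.0663). Slc1a4, a carrier of serine and alanine, rose by 0.64 ± 0.14 (adjusted p = 0.0132), and its other 2 probe sets by 0.66 ± 0.17 and 1.69 ± 0.24. Its call was lost in unscaled values (0.32, adjusted p = 0.412). It was also lost without control A (0.59 ± 0.18, adjusted p = 0.0806) and without control B (0.60 ± 0.18, adjusted p = 0.0585). Those 2 values came through another of its probe sets, which was then the brightest, so they do not show that the call above depends on these controls. Srr, the serine racemase, was called at 0.80 ± 0.23 (adjusted p = 0.0499), but its groups overlapped and its other probe set was at -0.04 ± 0.20. That call was lost in 14 of 19 alternatives, and leaving out starved E or starved F brought the value to 0.01 or 0.06 (adjusted p = 0.982 and 0.899), through the other probe set, which was then the brightest. The carriers Sfxn1 and Sfxn3, of which Sfxn1 moves serine into mitochondria, were at 0.01 ± 0.14 and -0.11 ± 0.16.

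Glycolytic genes next to 3-phosphoglycerate, the substrate of Phgdh, had 2 of 6 tested members lower and 0 higher. Eno3, the muscle enolase, stood between 13.09 and 13.21 in controls and between 12.60 and 12.73 in starved cells, and fell by 0.49 ± 0.05 (limma, adjusted p = 1.01e-04). Pgam1, a phosphoglycerate mutase, fell by 0.35 ± 0.09 (adjusted p = 0.0270), a call lost in 7 of 19 alternatives. The call of Eno3 was lost with median centring and with 75th percentile centring (adjusted p = 0.113 and 0.109). Pgk1, which makes 3-phosphoglycerate, was at -0.14 ± 0.08 and Aldoa at 0.03 ± 0.05.

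**Figure D4:**
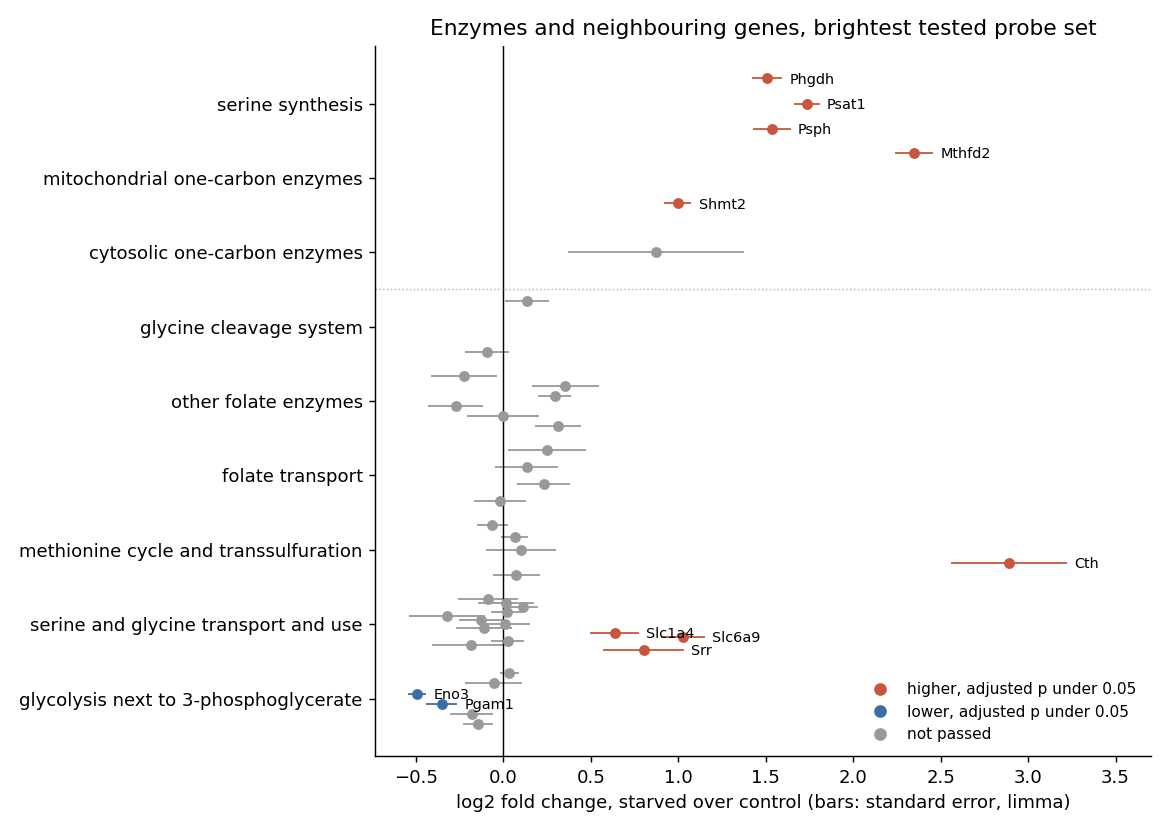
Log2 fold change, starved over control, of each tested gene (points; bars, standard error from limma) in the enzyme groups above the dotted line and in 6 lists of neighbouring genes below it. Red and blue mark an adjusted p under 0.05; the serine synthesis enzymes, Shmt2 and Mthfd2 lie between 0.997 and 2.35, whereas 30 of the 36 neighbouring genes are grey.

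Likeness between genes was measured as the root mean square difference between log2 signals over the 8 arrays, each gene first centred on its own mean. Psat1 and Psph were the closest of the enzymes (0.11), Phgdh lay 0.16 from Psph and 0.19 from Psat1, and Shmt2 and Mthfd2, both mitochondrial, lay 0.70 apart. Mthfd1 lay between 0.80 and 1.19 from each of the others, with its brightest probe set, on which control A stood far below the other arrays. Among 8346 other genes the 3 nearest to Mthfd2 were Pck2 (0.17), the mitochondrial form of phosphoenolpyruvate carboxykinase, Asns (0.17), the asparagine synthetase, and Slc7a5 (0.27), a subunit of a leucine carrier. Nearest to Psat1 were Stbd1 (0.11), Igf2 (0.13) and Slc3a2 (0.14). Nearest to Psph were Tm6sf1 (0.12), the stress transcription factor Ddit3 (0.15) and Igf2 (0.17), and nearest to Phgdh were Tm6sf1 (0.13), the growth factor Igf2 (0.15) and the slow myosin Myh7 (0.15). Nearest to Shmt2 were Sars (0.08), which charges the transfer RNA of serine, Nrbp2 (0.10) and Cyb5r1 (0.11). These distances describe 8 arrays in 2 groups. For the called enzymes and their nearest genes they largely restate how near the log2 fold changes are to each other. They are thus no separate result, and whether these genes are regulated together was not tested.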

How the data were processed

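Each deposited value is the linear intensity of 1 probe set on 1 array, as the values themselves show. The software and scaling behind it are not given in the sources used here. All 22690 probe sets and 8 columns were read. The labels do not say whether arrays of a group came from separate cultures, so p-values reflect the spread among these arrays only, and that spread may be technical. The letters A to H differ between groups and pair no arrays. It holds no detection calls, and precision is limited by how many arrays there are.

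Values below 0 were set to 0, 10.9 (the 10th percentile) was added as an offset, and log2 was taken. Quantile normalization followed, since trimmed means (2% dropped at each end) lay over 5% from their median. All fold changes thus refer to log2(value + offset), which understates those of dim genes. The 64 control probe sets were then left out, and the 13575 probe sets whose mean exceeded log2 6.61, the 40th percentile, were tested with limma 3.58.1 in R 4.3.3 (lmFit, eBayes with an intensity trend) at an adjusted p of 0.05. A gene is its brightest tested probe set with 1 symbol (8352 genes), named through the 2016 platform annotation. Within-array differences were compared by two-sided exact permutation over 70 labellings of the arrays.

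Named genes are the 9 enzymes, up to 3 called genes per direction of each list, Mthfd2l and Aldh1l1, and the 3 genes nearest to each called enzyme. Other genes named from the lists, which were not called, were chosen after their values were seen. The members, lists and tests were chosen with earlier results of these data known. The alternatives were other scalings, offsets, brightness filters and variance models, weighted arrays, averaging over the probe sets of a gene, and dropping single arrays in turn. The fit and the permutation test were tested on simulated data. Plots were made in Python 3.11.15 with matplotlib 3.10.9.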

Additional observations from a re-analysis of the deposited data

Results flagged for a closer look

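In groups of 4 arrays, an array was singled out where its gap to the nearest other array took up most of the group's range (above Dixon's critical value). Of 58 groups examined 5 held such an array, and chance alone does so in about 1 in 20. The brightest probe set of Mthfd1 stood at 6.481 on control A, against 9.085 to 9.241 on the other controls. For the same array the difference Mthfd2 minus Mthfd1 was 2.648, against -0.437 to -0.331 on the other controls. A probe set of Shmt2, 1426423_at, stood at 8.260 on control B, against 8.569 to 8.617. The brightest probe set of Shmt1 stood at 7.865 on control C, against 5.432 to 5.711 on the other controls, and the difference Shmt2 minus Shmt1 was 1.902 there, against 4.102 to 4.283. The 2 differences share their arrays with the probe sets, so the 5 are not separate events.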

How the results depend on the processing

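The counts of 5 enzymes higher and 0 lower were the same in all 19 alternatives, and Phgdh, Psat1, Psph, Shmt2 and Mthfd2 were called in each. Their log2 fold changes ranged from 1.14 to 1.84 for Phgdh, 1.36 to 1.82 for Psat1, 1.17 to 1.59 for Psph, 0.62 to 1.03 for Shmt2 and 2.00 to 2.45 for Mthfd2. The count of probe sets called higher was 11 in unscaled values and when the 60th percentile was the brightness limit, and 12 otherwise. Mthfd1 was not called in any of 19 alternatives (0.21 to 1.13, adjusted p from 0.196 to 0.444). The difference Mthfd2 minus Mthfd1 came to 1.626 when the probe sets of each gene were averaged and to 2.184 with the other probe set of Mthfd1, and ranged from 1.201 to 2.245 when single arrays were left out. With averaged probe sets, with the other probe set and without control A its exact p was 0.0286 before adjustment. With the other probe set it was 0.0858 when adjusted over 3 comparisons. Under the other scalings and offsets, and without any single starved array, exact p stayed at 0.143. Without control B, control C or control D it was 0.314. The number of neighbouring genes called, 6, ranged from 3 to 5 when single arrays were left out, with 3 without starved E or starved G. Over all alternatives 1 to 5 of them were higher, against 4, and 1 to 3 lower, against 2. With unscaled values 45 genes of the whole table were higher and 1027 lower, against 355 and 579, with median centring 217 were higher, and without starved F 226. Cth was called in the 15 alternatives that kept it, and its mean fell under the brightness limit in the other 4. The causes of these changes were not tested. Pairs with Aldh1l2 or Mthfd1l could not be computed, and the dimness of Shmt1 limits what can be said of the cytosolic enzymes.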
